A study of Rattus norvegicus with 12 samples.

Results

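The 8 genes Slc7a11, Gclc, Gclm, Gss, Cdo1, Csad, Cth and Cbs encode the proteins that bring cystine into the cell, turn cysteine into glutathione or taurine, and make cysteine from homocysteine. They were chosen by symbol, with the normalised reads of the 4 groups in view but no threshold on any value, from the 13546 genes listed in at least 1 of the 3 tables that the authors deposited, and all 8 are listed in all 3 tables. Of the 8, 7 passed the filter used for testing, a mean of at least 10 normalised reads, in every comparison. Cbs did not, and its values are given without a test. RNA sequencing had been done on primary cells from the nucleus pulposus, the soft inner part of a spinal disc, of Wistar rats. The cells had grown out of explanted tissue in serum-containing DMEM and had all been transduced with lentivirus. PLKO_CTR cells carried the control shRNA vector and were untreated, and PLKO_TNF cells carried the same vector and received 50 ng/mL of the inflammatory cytokine TNF-a for 24 h. shTon_CTR and shTon_TNF cells carried an shRNA against TonEBP, the osmolarity-responsive transcription factor encoded by Nfat5, without and with the same TNF-a treatment. Each group held 3 libraries, and their titles number them as sets 1, 2 and 3. The labels leave out what a set stands for, whether animals were pooled and how old they were. The p-values therefore reflect the spread among these libraries alone, which may be technical. The labels name 1 shRNA against TonEBP, with no sequence.

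Cystine, the oxidised pair of cysteines, enters cells through system xc-, an exchanger made of the transport chain encoded by Slc7a11 and the partner chain encoded by Slc3a2, which exports glutamate in return. Inside the cell cystine is reduced to cysteine. Glutamate-cysteine ligase, with its catalytic subunit Gclc and its modifier subunit Gclm, joins cysteine to glutamate in the rate-limiting step of glutathione synthesis, and glutathione synthetase, Gss, adds glycine. Cysteine dioxygenase, Cdo1, instead commits cysteine to breakdown, and Csad, cysteine sulfinic acid decarboxylase, turns its product into hypotaurine, the precursor of the osmolyte taurine. Cbs, cystathionine beta-synthase, and Cth, cystathionine gamma-lyase, form the transsulfuration route that makes cysteine from homocysteine. Slc7a11, Gclc and Gclm are textbook targets of the transcription factor NRF2, which binds antioxidant response elements, and Slc7a11 is also a target of ATF4, the factor of the amino acid starvation response. Nucleus pulposus cells live in a hyperosmotic tissue, where TonEBP supports the import of osmolytes through carriers such as the taurine transporter Slc6a6.

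The promoters of Slc7a11, Gclc and Gclm are printed because these 3 genes had lower values in shTon_TNF than in PLKO_TNF in 3 of 3 sets, as had 19.8% of all tested genes. Each runs from 250 bases before to 50 bases after the annotated start, 5′ to 3′ on the gene's strand, from RefSeq on the rat build GRCr8, and capitals mark a match to TGACNNNGC, the core of the antioxidant response element, on either strand.
Slc7a11: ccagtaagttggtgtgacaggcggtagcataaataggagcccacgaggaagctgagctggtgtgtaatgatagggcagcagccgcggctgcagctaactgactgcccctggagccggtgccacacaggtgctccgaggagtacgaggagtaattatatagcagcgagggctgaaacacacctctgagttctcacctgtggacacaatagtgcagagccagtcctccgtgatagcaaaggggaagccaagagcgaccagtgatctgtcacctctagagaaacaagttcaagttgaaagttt
Gclc: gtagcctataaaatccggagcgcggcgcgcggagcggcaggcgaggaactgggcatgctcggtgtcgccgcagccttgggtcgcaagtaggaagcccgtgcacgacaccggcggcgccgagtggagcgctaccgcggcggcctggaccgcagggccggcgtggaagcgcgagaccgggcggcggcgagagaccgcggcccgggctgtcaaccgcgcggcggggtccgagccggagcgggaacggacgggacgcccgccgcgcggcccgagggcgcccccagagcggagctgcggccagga
Gclm: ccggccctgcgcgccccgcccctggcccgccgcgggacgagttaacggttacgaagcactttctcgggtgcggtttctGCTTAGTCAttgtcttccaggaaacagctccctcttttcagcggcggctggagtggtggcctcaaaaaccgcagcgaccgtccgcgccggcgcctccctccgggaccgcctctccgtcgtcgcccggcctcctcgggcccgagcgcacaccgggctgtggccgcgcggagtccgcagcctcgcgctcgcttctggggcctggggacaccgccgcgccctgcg
The first lies on the minus strand at chr2:136668215-136668514, the second on the plus strand at chr8:87510226-87510525 and the third on the plus strand at chr2:213031885-213032184. Promoters of 7 of the 8 genes were in that table. Only that of Gclm held TGACNNNGC, 172 to 164 bases before the start and on the opposite strand as TGACTAAGC, and 12.1% of all 33469 promoters of this length hold a match. TGATGNAA, the core of the ATF4 element (3.98% of all promoters), and TGGAAA, the core of the TonEBP element (22.7%), were in none of the 7 on either strand. The core of the NF-kB element, GGG and CC with 5 bases of any kind between them, was in the promoters of 5 of the 7 (Gclc, Gclm, Gss, Cth and Cbs) and in 47.3% of all promoters, and none of these matches overlaps the TGACNNNGC match of Gclm. These are matches of letters in short windows and say nothing of binding. The Gclc and Gclm promoters were GC-rich, with 76.7% and 72.0% G or C against a median of 51.7% over all promoters and 53.3% in Slc7a11.

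Reads on listed genes ranged from 7160042 to 18646798 per library. The sets stood apart from each other: limma, the linear model used throughout, called a difference among sets for 45.4% of 12310 tested genes (adjusted p under 0.05), and skeletal muscle markers summed to 42444 to 96676 normalised reads in set 1, 16224 to 29595 in set 2 and 51.5 to 102 in set 3. Of 14 nucleus pulposus and notochord markers, 6 were listed in all 3 tables (Krt8, Car3, Cd24, Pax1, Foxf1 and Lgals3), with summed levels of 3417 to 16497. T, Krt18, Krt19, Noto, Shh, Acan, Col2a1 and Sox9 were not analysed here. Whether the 6 mark nucleus pulposus cells alone was not tested. Nfat5, the targeted gene, read 685, 1363 and 1818 normalised reads in sets 1 to 3 of PLKO_CTR and 458, 457 and 288 in shTon_CTR (log2 fold change -1.61, limma adjusted p = 0.0963). Its limma adjusted p was 0.0405 without set 1, 0.211 without set 2 and 0.00744 without set 3, DESeq2 gave 5.1e-05, and the authors' deposited table lists -1.19 (adjusted p = 4.57e-05). It read 642, 1092 and 483 in PLKO_TNF but 1695, 500 and 232 in shTon_TNF, so that the library labelled shTon_TNF of set 1 goes against its label. With TNF-a the log2 fold change of Nfat5 was -0.26 (adjusted p = 0.799), and -1.09 without set 1 (adjusted p = 0.00941). For the 7 genes, values that rest on that library are given with and without it, or, in the knockdown with TNF-a, without set 1 as a whole. Levels by library are normalised reads on 1 scale over the 12 libraries, while fold changes of the 3 deposited pairs were fitted on each deposited table. These genes were named with earlier results of these data known, so the calls describe these libraries and are not independent evidence.

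TNF-a raised the genes of cystine uptake and glutathione synthesis in PLKO cells and lowered Cdo1. Of the 7 tested genes 4 rose (Slc7a11, Gclc, Gclm and Gss, where 4.97% of all 12373 tested genes rose) and 1 fell (Cdo1, where 4.65% fell), against 9.62% called in all, at an adjusted p under 0.05 in limma. The median log2 fold change of the 7 was 0.78 against -0.01 over all genes. The authors' deposited table also lists these 5 under 0.05, as it does 11.8% of its genes. By value alone the same 4 were higher in 3 of 3 sets (25.3% of all genes) and Cdo1 was lower in 3 of 3 (26.6%). The groups did not overlap for Cdo1 and Gss, nor for 11.5% of all genes. In shTon cells 1 of 7 passed, Cdo1, which fell, where 2.71% of all 12310 genes were called and 0.999% fell. DESeq2 called 3 there (Slc7a11, Gss and Cdo1), and 684 of all genes. Slc7a11, Gclc, Gclm and Gss were again higher in 3 of 3 sets (20.0% of all genes), Cdo1 and Csad were lower in 3 of 3 (22.6%), and the groups did not overlap for Cdo1 (10.6% of all genes).

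The knockdown changed fewer genes of the 8, as of all genes. Without TNF-a 0 of 7 passed in limma, where 0.113% of all 12383 genes did, with 0 at an unadjusted p under 0.05, 0 in edgeR and 0 in DESeq2. Of all genes 2108 were at an unadjusted p under 0.05, edgeR called 18 and DESeq2 called 403. The authors' deposited table lists 0 of the 7 under 0.05, and 3.59% of its genes. Slc7a11 alone was lower in 3 of 3 sets (20.2% of all genes), and the groups overlapped for all 8 (they did not for 9.9% of all genes). With TNF-a 1 of 7 passed, Slc7a11, lower in shTon cells, where 0.254% of all 12213 genes were called and 0.139% were lower. A further 2, Gclc and Gclm, were lower at an unadjusted p under 0.05, edgeR called 0 and DESeq2 called 2. Over all genes 2079 were at an unadjusted p under 0.05, edgeR called 29 and DESeq2 called 363. The authors' deposited table lists 2 (Slc7a11 and Gclm) under 0.05, with 3.31% of its genes. The groups overlapped for all 8 genes, where they did not for 12.9% of all genes, and the median over the 7 was -0.46 against 0.02 over all genes. The interaction tests whether the TNF-a difference itself differed between shTon and PLKO cells. It called 0 of 7 and 0.0% of all genes in limma. At an unadjusted p under 0.05 were 2 of the 7 (Slc7a11 and Gclm) and 219 of all 12310 genes. Both edgeR and DESeq2 called 0 of the 7 and 0 of all genes. Among sets 6 of 7 passed, all but Csad, beside the 45.4% of all genes. Slc7a11 was the 1 of these 6 that passed with any 1 set left out: Cdo1 missed without set 1 or 3 (limma adjusted p = 0.127 and 0.187), Cth without set 2 or 3 (0.0694 and 0.0614), Gclc without set 1 (0.0528), Gclm without set 2 (0.263) and Gss without set 1 or 2 (0.0763 and 0.431). Without the set 1 library labelled shTon_TNF, Gss missed as well (0.0838). Without the mean-variance trend of the model Cdo1 and Gss missed among sets (limma adjusted p = 0.0725 and 0.0756).

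All of the calls between groups depend on the set being a term of the model. Without this block, 0 of the 7 genes passed in any comparison between groups. The adjusted p of Slc7a11 was then 0.862 with TNF-a in PLKO cells and 0.910 for the knockdown with TNF-a, and those of Gclc, Gclm and Gss with TNF-a in PLKO cells were 0.841, 0.762 and 0.567. That of Cdo1 with TNF-a in shTon cells was 0.617. The calls were also lost without the mean-variance trend, at adjusted p of 0.0930 for Slc7a11, 0.0891 for Gclc, 0.0933 for Gclm and 0.125 for Gss with TNF-a in PLKO cells, 0.172 for Slc7a11 in the knockdown with TNF-a and 0.0842 for Cdo1 with TNF-a in shTon cells. Without the block, and also without the trend, the call of Cdo1 with TNF-a in PLKO cells was lost too. The fold changes are the same in all 3 fits, and the spread they are held against is not.

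Slc7a11 varied the most of the 7 tested genes, from 74.2 normalised reads in set 3 of shTon_CTR to 20344 in set 1 of PLKO_TNF, a span of 274-fold. In sets 1, 2 and 3 it read 10199, 945 and 80.1 in PLKO_CTR, 20344, 6764 and 498 in PLKO_TNF, 4154, 914 and 74.2 in shTon_CTR, and 10054, 1730 and 145 in the libraries labelled shTon_TNF. Set 1 was highest and set 3 lowest in all 4 groups, and the groups overlap in every comparison because the sets lie so far apart. Within each set the order was the same at the top: PLKO_TNF was the highest of the 4 libraries. TNF-a raised Slc7a11 in PLKO cells by 2.15 on the log2(normalised reads + 1) scale (SE 0.33, limma adjusted p = 0.0157), with within-set ratios of 1.99, 7.16 and 6.23. Adding 1 understates the changes of genes with few reads. In shTon cells the same treatment gave ratios of 2.42, 1.89 and 1.96 and a log2 fold change of 1.05 (SE 0.28) that missed the threshold (limma adjusted p = 0.0791, and 0.120 without the set 1 library labelled shTon_TNF). It passed without set 1 as a whole (0.94, adjusted p = 0.0252).

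For the knockdown, Slc7a11 passed the threshold with TNF-a and missed it without. Without TNF-a the shTon_CTR value was 0.405 of the PLKO_CTR value in set 1 but 0.962 and 0.927 of it in sets 2 and 3, for a log2 fold change of -0.49 (95% interval -1.05 to 0.08, limma adjusted p = 0.349). Without set 1 that value was -0.08. With TNF-a the PLKO_TNF level was 2.01, 3.90 and 3.44 times the shTon_TNF level, and Slc7a11 fell by 1.58 on the log2 scale (SE 0.21, limma adjusted p = 0.0389). Without set 1, and so without the library whose Nfat5 level goes against its label, the log2 fold change was -1.87 (limma adjusted p = 7.82e-05). Without set 3 it was -1.48 and missed the threshold (adjusted p = 0.0595). The authors' deposited table gives -1.31 for this comparison (adjusted p = 2.24e-07), 1.00 for TNF-a in PLKO cells (adjusted p = 0.0176) and -0.47 for the knockdown without TNF-a (adjusted p = 0.229). The TNF-a and knockdown comparisons share the PLKO_TNF libraries, so they are not separate measurements of the high level there. The interaction was -1.10 for Slc7a11 (95% interval -1.97 to -0.23, unadjusted p = 0.0176 and adjusted p = 0.999 in limma over the 12 libraries), which did not pass over all genes, -1.13 without the set 1 library labelled shTon_TNF, and -1.79 without set 1 (adjusted p = 0.249).

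Slc3a2, the partner chain of the exchanger, followed at smaller size. It read 4338, 2232 and 1540 normalised reads in PLKO_CTR and 5570, 3203 and 2528 in PLKO_TNF, higher in each set (log2 fold change 0.53, SE 0.11, limma adjusted p = 0.0315, and 0.0831 without set 2 or 0.125 without set 3). In shTon cells it read 3106, 2323 and 2017 without TNF-a and 3421, 2671 and 2029 with it (log2 fold change 0.12, limma adjusted p = 0.764, and 0.23, adjusted p = 0.458, without the set 1 library labelled shTon_TNF). Between shTon_TNF and PLKO_TNF its log2 fold change was -0.42 (SE 0.17, limma adjusted p = 0.258), and -0.29 without set 1 (adjusted p = 0.566).

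**Figure D1:**
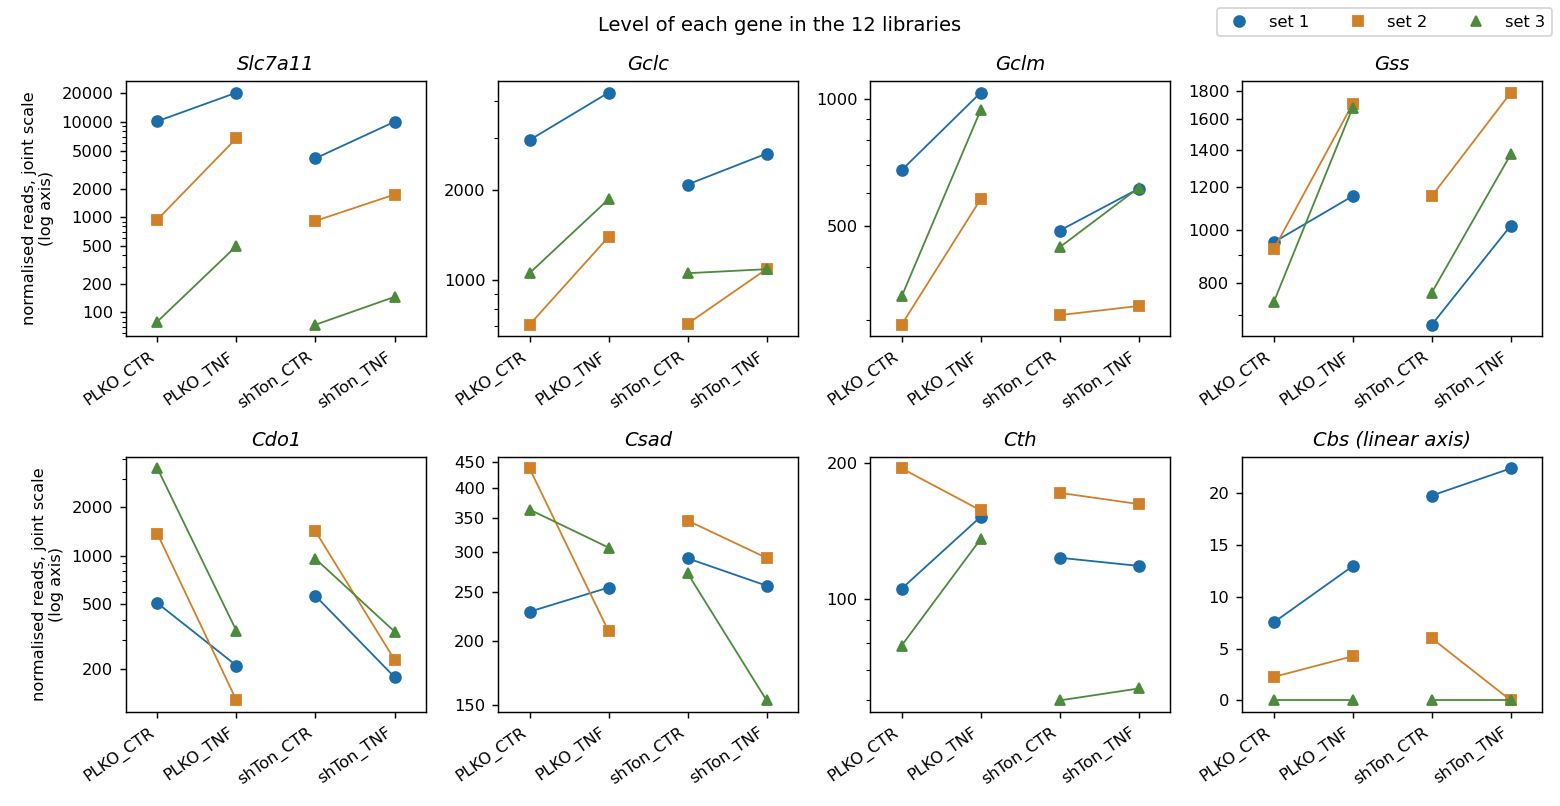
Normalised reads of the 8 genes in each library (log axis, linear for Cbs), by group, with circles, squares and triangles for sets 1, 2 and 3 and lines joining CTR and TNF of a set. Slc7a11 falls into 3 tiers by set from 10199 to 80.1 in PLKO_CTR, Cdo1 drops with TNF-a in all 6 pairs, and Cbs is at 0 in all 4 set 3 libraries.

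The 3 genes of glutathione synthesis, Gclc, Gclm and Gss, were all higher with TNF-a in PLKO cells in 3 of 3 sets and rose by 0.78 to 1.02 on the log2 scale. Gclc, the catalytic subunit, read 2952, 709 and 1056 normalised reads in PLKO_CTR and 4258, 1397 and 1869 in PLKO_TNF (log2 fold change 0.78, SE 0.12, limma adjusted p = 0.0147). Gclm, the modifier subunit, read 680, 292 and 341 in PLKO_CTR and 1038, 581 and 943 in PLKO_TNF (1.02, SE 0.17, limma adjusted p = 0.0177). Set 1 had the highest level of both in either group, and the PLKO_CTR library of set 1 overlaps the PLKO_TNF range. Gss, which completes the tripeptide, read 951, 923 and 739 in PLKO_CTR and 1155, 1704 and 1677 in PLKO_TNF, with no overlap (0.78, SE 0.17, limma adjusted p = 0.0368). The Gss call was lost without set 2 (0.73, adjusted p = 0.0812). The authors' deposited table gives 0.72 for Gclc, 0.92 for Gclm and 0.71 for Gss, with adjusted p of 7.35e-05, 2.48e-05 and 0.00160.

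In shTon cells none of the 3 passed with TNF-a, although each was higher in 3 of 3 sets. Gclc read 2094, 714 and 1055 normalised reads in shTon_CTR and 2659, 1090 and 1089 in shTon_TNF (log2 fold change 0.33, SE 0.15, limma adjusted p = 0.292). Gclm read 489, 308 and 446 and then 615, 324 and 618 (0.29, SE 0.18, limma adjusted p = 0.458). Gss read 672, 1155 and 769 and then 1020, 1786 and 1378 (0.69, SE 0.18, limma adjusted p = 0.0768), where it was 0.78 in PLKO cells. Without the set 1 library labelled shTon_TNF the log2 fold changes were 0.40 for Gclc, 0.36 for Gclm and 0.80 for Gss, with limma adjusted p of 0.212, 0.339 and 0.0627. The interaction for Gss was -0.09 with a 95% interval of -0.66 to 0.47. That of Gclm was -0.73 (-1.29 to -0.17, unadjusted p = 0.0158) and that of Gclc -0.44 (-0.91 to 0.03, unadjusted p = 0.0614), and the limma adjusted p was 0.999 for all 3. Without that library the interactions were 0.02 for Gss, -0.66 for Gclm and -0.38 for Gclc.

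Under TNF-a both ligase subunits were lower in shTon than in PLKO libraries in 3 of 3 sets, and neither passed the threshold. The log2 fold change was -0.60 for Gclc (SE 0.16, limma adjusted p = 0.145) and -0.73 for Gclm (SE 0.16, limma adjusted p = 0.102). Without set 1 the values were -0.57 (adjusted p = 0.174) and -0.73 (adjusted p = 0.0797). Gclm passed in DESeq2 (adjusted p = 0.0374). The authors' deposited table lists Gclm at -0.64 (adjusted p = 0.0372) and Gclc at -0.53 (adjusted p = 0.0964). Gss was at -0.13 (95% interval -0.49 to 0.23), and at -0.11 without set 1. Without TNF-a the knockdown values of the 3 genes were -0.17, -0.01 and -0.04, with limma adjusted p from 0.586 to 0.988. In set 1 all 3 were lower in shTon_CTR than in PLKO_CTR, and without set 1 the values turned to 0.00, 0.23 and 0.19.

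Cdo1, which commits cysteine to breakdown, moved the other way and had the largest TNF-a difference of the 7 tested genes in both vectors. It read 509, 1368 and 3481 normalised reads in PLKO_CTR and 209, 127 and 342 in PLKO_TNF, so that the groups do not overlap. The PLKO_CTR level was 2.44, 10.8 and 10.2 times the PLKO_TNF level in sets 1, 2 and 3, and the log2 fold change was -2.68 (SE 0.39). This difference was among the results known when the genes were named and is given as a description. In shTon cells Cdo1 read 564, 1418 and 958 without TNF-a and 177, 227 and 339 in the libraries labelled shTon_TNF, again without overlap. It fell by 1.93 on the log2 scale (SE 0.44, limma adjusted p = 0.0439), with the shTon_CTR level 3.19, 6.25 and 2.82 times the shTon_TNF level. That call rests on all 12 libraries: leaving out any 1 set gave adjusted p of 0.0656 to 0.431, and leaving out the set 1 library labelled shTon_TNF gave -2.07 with adjusted p = 0.0613. The interaction was 0.75 (95% interval -0.61 to 2.11), and 0.61 without that library. In bulk samples such as these, fewer cells of a type and less RNA per cell cannot be told apart. Of the 14 nucleus pulposus markers 6 were tested (Krt8, Car3, Cd24, Pax1, Foxf1 and Lgals3), and whether they mark these cells alone was not tested. Of these, 3 fell and 0 rose with TNF-a in PLKO cells, where 4.65% of all genes fell. Their median log2 fold change was -1.10. Skeletal muscle markers had 1 of 9 called lower (median -0.465) and fibroblast markers 1 of 6 (median -0.245), with 0 higher. Of 8 adipocyte, 6 leukocyte and 5 endothelial markers only 2, 1 and 1 were tested, and 0 were called. The part of any of these markers in the Cdo1 difference was not tested.

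The knockdown left Cdo1 without a called difference. Without TNF-a the shTon_CTR level was 1.10, 1.03 and 0.275 of the PLKO_CTR level in sets 1 to 3 (log2 fold change -0.56, SE 0.36, limma adjusted p = 0.464), and the value without set 3 was 0.09. With TNF-a the log2 fold change was 0.20 (SE 0.24, limma adjusted p = 0.715), and 0.41 without set 1 (adjusted p = 0.475). Set 3 of PLKO_CTR, at 3481, was the highest Cdo1 library of the 12. Among sets Cdo1 ran in the opposite order to Slc7a11 in PLKO_CTR, lowest in set 1 and highest in set 3. In shTon_CTR set 2 was highest.

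Csad, the next enzyme towards taurine, spanned 153 to 438 normalised reads over the 12 libraries. It read 228, 438 and 363 in PLKO_CTR, 255, 209 and 306 in PLKO_TNF, 291, 345 and 272 in shTon_CTR and 257, 292 and 153 in shTon_TNF. The groups overlap in each comparison, and Csad was the 1 tested gene of the 7 that did not differ among sets at the threshold (limma adjusted p = 0.555). Its log2 fold change with TNF-a was -0.39 in PLKO cells (95% interval -0.92 to 0.15) and -0.42 in shTon cells (-1.02 to 0.19). The knockdown values were -0.14 (-0.57 to 0.29) without and -0.16 (-0.81 to 0.48) with TNF-a. Without the set 1 library labelled shTon_TNF Csad was at -0.61 with TNF-a in shTon cells (limma adjusted p = 0.271), and without set 1 it was at -0.26 in the knockdown with TNF-a. Slc6a6, the taurine transporter, read 976, 1548 and 809 in PLKO_CTR and 822, 1002 and 525 in shTon_CTR, lower in each set, with a log2 fold change of -0.50 (SE 0.13) that missed the threshold (limma adjusted p = 0.133). With TNF-a the shTon level of Slc6a6 was 1.28, 1.04 and 0.422 of the PLKO level in sets 1 to 3, higher in 2 sets and lower in 1 (-0.28, SE 0.29, limma adjusted p = 0.662).

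The transsulfuration enzymes had few reads. Cth spanned 59.9 to 194 normalised reads: 105, 194 and 79.1 in PLKO_CTR, 152, 157 and 136 in PLKO_TNF, 123, 172 and 59.9 in shTon_CTR and 118, 162 and 63.6 in shTon_TNF. Set 3 was lowest in all 4 groups. TNF-a gave 0.33 in PLKO cells (95% interval -0.21 to 0.87) and -0.02 in shTon cells (-0.56 to 0.52), and the knockdown gave -0.12 (-0.58 to 0.34) without and -0.46 (-1.07 to 0.15) with TNF-a, all on the log2 scale. Without the set 1 library labelled shTon_TNF Cth was at -0.08 with TNF-a in shTon cells, and without set 1 it was at -0.52 in the knockdown with TNF-a. Cbs had 12, 21, 21 and 21 reads in the set 1 libraries of PLKO_CTR, PLKO_TNF, shTon_CTR and shTon_TNF, and 3, 4, 5 and 0 reads in those of set 2. It had 0 reads in all 4 libraries of set 3, which allows up to 3 reads, or 3.12 to 4.54 normalised reads, per library, and this limit covers counting error only. No test was run on Cbs at these depths.

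**Figure D2:**
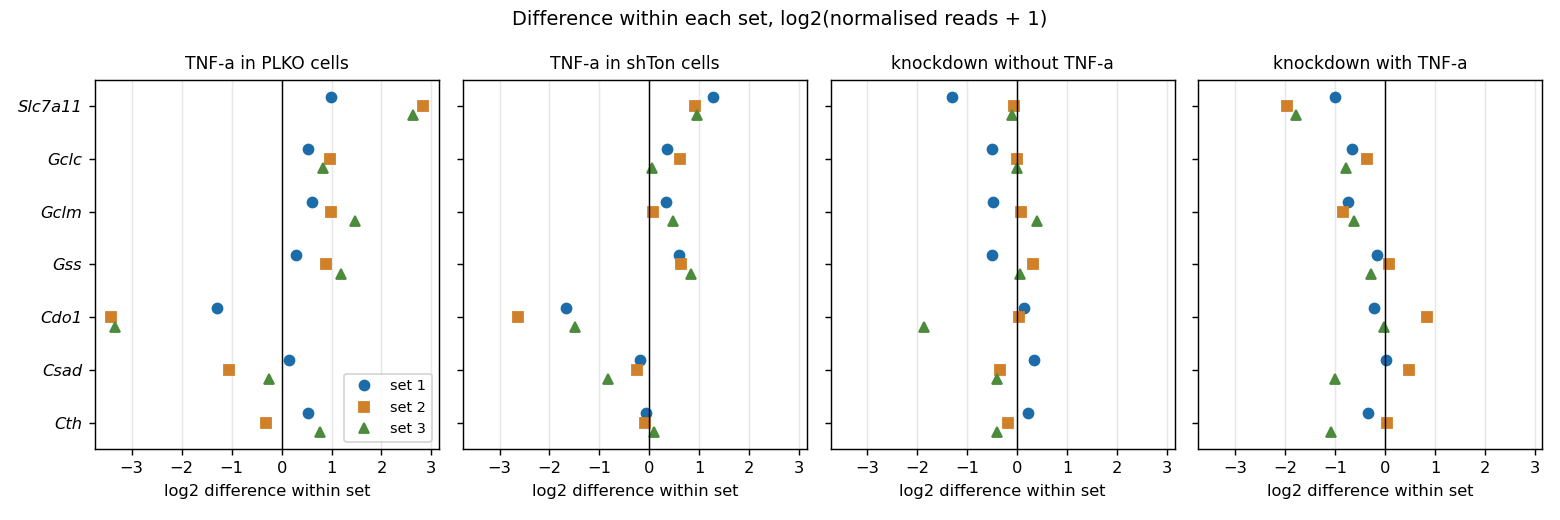
Within-set difference of the 7 tested genes in log2(normalised reads + 1), with 1 symbol per set and 1 panel per comparison. Slc7a11, Gclc, Gclm and Gss lie to the right of 0 in all sets of both TNF-a panels, Cdo1 to the left, and Slc7a11, Gclc and Gclm lie to the left of 0 in all sets of the knockdown with TNF-a.

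**Figure D3:**
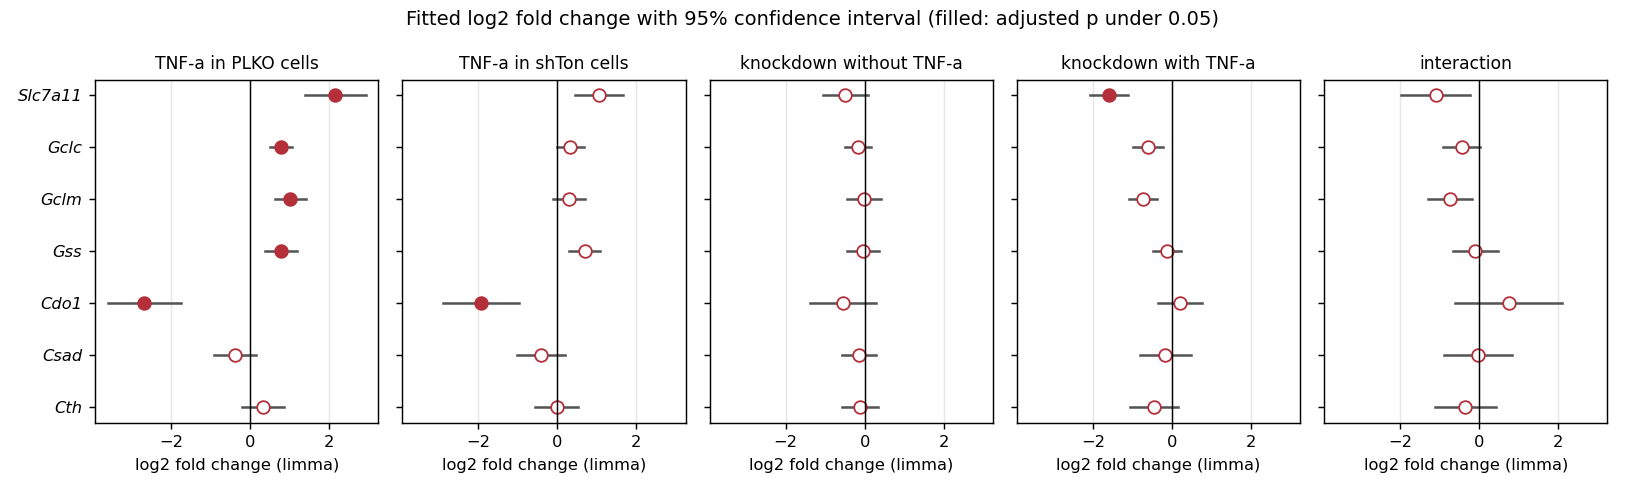
Fitted log2 fold change of the 7 tested genes with its 95% interval, 1 panel per comparison, filled where the limma adjusted p was under 0.05. In the panel of the interaction all symbols are open, and the intervals of Slc7a11 (-1.97 to -0.23) and Gclm (-1.29 to -0.17) lie below 0.

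For Slc7a11, Gclc and Cth the differences among sets were larger than any fitted difference between groups. The range of the 3 set means, on the log2 scale over 12 libraries, was 6.05 for Slc7a11, 1.63 for Gclc, 1.30 for Cdo1, 1.08 for Cth, 0.91 for Gclm, 0.53 for Gss and 0.27 for Csad. The median range over all tested genes was 0.49. Skeletal muscle markers stood in the same order of sets as Slc7a11, highest in set 1 and lowest in set 3, and all 9 of those tested differed among sets. Adipocyte markers, of which 5 of 8 were listed, summed to 1833 to 5932 normalised reads in set 1, 308 to 2009 in set 2 and 38.5 to 80.7 in set 3, and 1 of the 3 tested differed among sets. Adipoq, Fabp4 and Plin1 were not analysed here. Nucleus pulposus markers stood in the same order in all 4 groups, at 8529 to 16497 in set 1, 5623 to 9386 in set 2 and 3417 to 7351 in set 3, and 5 of 6 differed among sets. Fibroblast markers were highest in set 2 in all 4 groups, and 6 of 6 differed among sets. These counts of markers stand beside the 45.4% of all genes that differed among sets. The part of any of these markers in the levels of Slc7a11 was not tested. Within sets 1, 2 and 3 the TNF-a ratio of Slc7a11 was 1.99, 7.16 and 6.23 in PLKO cells. In shTon cells it was 2.42, 1.89 and 1.96, and each ratio rests on 1 library per group.

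The other genes of the pathway were counted on 6 lists, chosen with earlier results of these data known. With TNF-a in PLKO cells their counts stand beside the 4.97% of all genes that rose and the 4.65% that fell. Of 7 tested transporters of cystine, cysteine and glutamate, 4 rose and 1 fell there. Slc1a5, a neutral amino acid exchanger, rose by 1.89 on the log2 scale (SE 0.15, limma adjusted p = 0.00218), from 578 ± 274 to 2022 ± 529 normalised reads (SD, n = 3). Slc1a1, which imports glutamate and cysteine, rose by 1.41 (SE 0.20, adjusted p = 0.0125) and Slc1a4 by 0.69 (adjusted p = 0.0128), and Slc38a1 fell by 0.59 (adjusted p = 0.0435). Both Slc1a5 and Slc1a1 also rose in shTon cells, by 1.55 (SE 0.24, adjusted p = 0.00832) and 1.61 (SE 0.29, adjusted p = 0.0182), where Slc7a11 missed the threshold. Without set 2 the adjusted p in shTon cells was 0.245 and 0.109, and that of Slc1a1 was 0.0812 without set 1 and 0.0880 without set 3. Without the set 1 library labelled shTon_TNF alone it was 0.0212 for Slc1a5 and 0.0364 for Slc1a1. The call of Slc38a1 in PLKO cells was lost without set 2 (adjusted p = 0.210) and without set 3 (0.0563).

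The NRF2 list, the 8 genes left out, holds Nfe2l2, Keap1 and Bach1 beside target genes, so it is not a list of targets alone. Of 15 NRF2 genes tested, 5 rose (Bach1, Hmox1, Osgin1, Srxn1 and Txnrd1) and 0 fell with TNF-a in PLKO cells. All 15 were higher by value, with a median log2 fold change of 0.33 against -0.01 over all genes. Txnrd1, thioredoxin reductase, rose by 1.74 (SE 0.21, limma adjusted p = 0.00767), Hmox1, heme oxygenase, by 1.67 (SE 0.26, adjusted p = 0.0171) and Srxn1, sulfiredoxin, by 1.41 (SE 0.21, adjusted p = 0.0148). Nfe2l2, the NRF2 gene, read 3976, 4565 and 4402 normalised reads in PLKO_CTR and 5349, 5303 and 5635 in PLKO_TNF (0.33, SE 0.11, adjusted p = 0.0904). In shTon cells 1 of the 15 rose, Txnrd1, by 1.11 (SE 0.20, adjusted p = 0.0155, 0.362 without set 2 and 0.0203 without the set 1 library labelled shTon_TNF). In the knockdown with TNF-a 0 of 15 passed in limma, with 7 lower at an unadjusted p under 0.05, 0 in edgeR and 3 in DESeq2. Without set 1, which holds the library whose Nfat5 goes against its label, 4 passed in limma. Of all 12213 genes 2079 were at an unadjusted p under 0.05, and DESeq2 called 363. Calls over all genes in limma were 31 with all sets and 488 without set 1. All 15 were lower by value in the fit of all sets, with a median of -0.43 against 0.02 over all genes. This comparison shares the PLKO_TNF libraries with the one before.

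Of 33 tested genes that use, recycle or break down glutathione, 2 rose and 5 fell with TNF-a in PLKO cells, 7 called in all where 9.62% of all genes were. Gsr, which regenerates glutathione from its oxidised form, rose by 0.60 (SE 0.14, limma adjusted p = 0.0443) and Ggct, which acts in its breakdown, by 0.71 (adjusted p = 0.0456). Anpep, an aminopeptidase, fell by 1.58 (adjusted p = 0.0309), Mgst3, a microsomal glutathione transferase, by 1.38 (adjusted p = 0.0394) and Oplah, which recycles 5-oxoproline, by 1.05 (adjusted p = 0.0181). The calls of Gsr, Ggct, Anpep and Mgst3 were lost without set 2, at adjusted p of 0.0938, 0.250, 0.0542 and 0.115. Those of Gsr and Mgst3 were also lost without set 3 (0.115 and 0.0668), and that of Ggct without set 1 (0.0851). In limma 0 of the 33 passed in shTon cells or in either knockdown comparison, with 6, 7 and 11 at an unadjusted p under 0.05, 0 in edgeR and 2, 3 and 3 in DESeq2. Without set 1 limma called 0, 1 and 2. Of all genes, 2096 of 12310, 2108 of 12383 and 2079 of 12213 were at an unadjusted p under 0.05. DESeq2 called 684, 403 and 363 of all genes, and limma without set 1 called 138, 283 and 488.

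On the list of the methionine cycle and sulfide oxidation 0 of 15 tested genes passed with TNF-a in PLKO cells in limma, with 2 at an unadjusted p under 0.05, 0 in edgeR and 1 in DESeq2. On that of taurine synthesis and transport 0 of 4 passed, with 1 at an unadjusted p under 0.05 and 0 in either other tool. Of 15 ATF4 genes 1 rose, Shmt2 of mitochondrial one-carbon metabolism (0.73, limma adjusted p = 0.0425), and 1 fell, Vldlr (-0.85, adjusted p = 0.0315), with 6 higher and 3 lower at an unadjusted p under 0.05, 3 called in edgeR and 4 in DESeq2. These 2 of 15 stand beside the 9.62% of all genes called in limma. The unadjusted, edgeR and DESeq2 counts of these lists with TNF-a in PLKO cells have no share over all genes beside them here. They are given as description only. The 1 gene of the 6 lists that passed in the knockdown without TNF-a was Aldh1l2, a mitochondrial folate enzyme on the ATF4 list, which rose by 1.44 (SE 0.16, limma adjusted p = 0.0395), and 0 of the 6 lists' genes passed in the knockdown with TNF-a in limma or edgeR. DESeq2 called 1 gene of the methionine list and 2 of the ATF4 list there, beside the 3 each of the glutathione and NRF2 lists. Without set 1 limma called 1 and 3 on those first 2 lists, 2 on the glutathione list, 4 on the NRF2 list and 0 on the transport and taurine lists. Over all genes DESeq2 called 363 in that comparison, and limma without set 1 called 488. Without set 2 the adjusted p was 0.111 for Shmt2 (0.0610 without set 3), 0.0888 for Vldlr and 0.0611 for Aldh1l2.

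**Figure D4:**
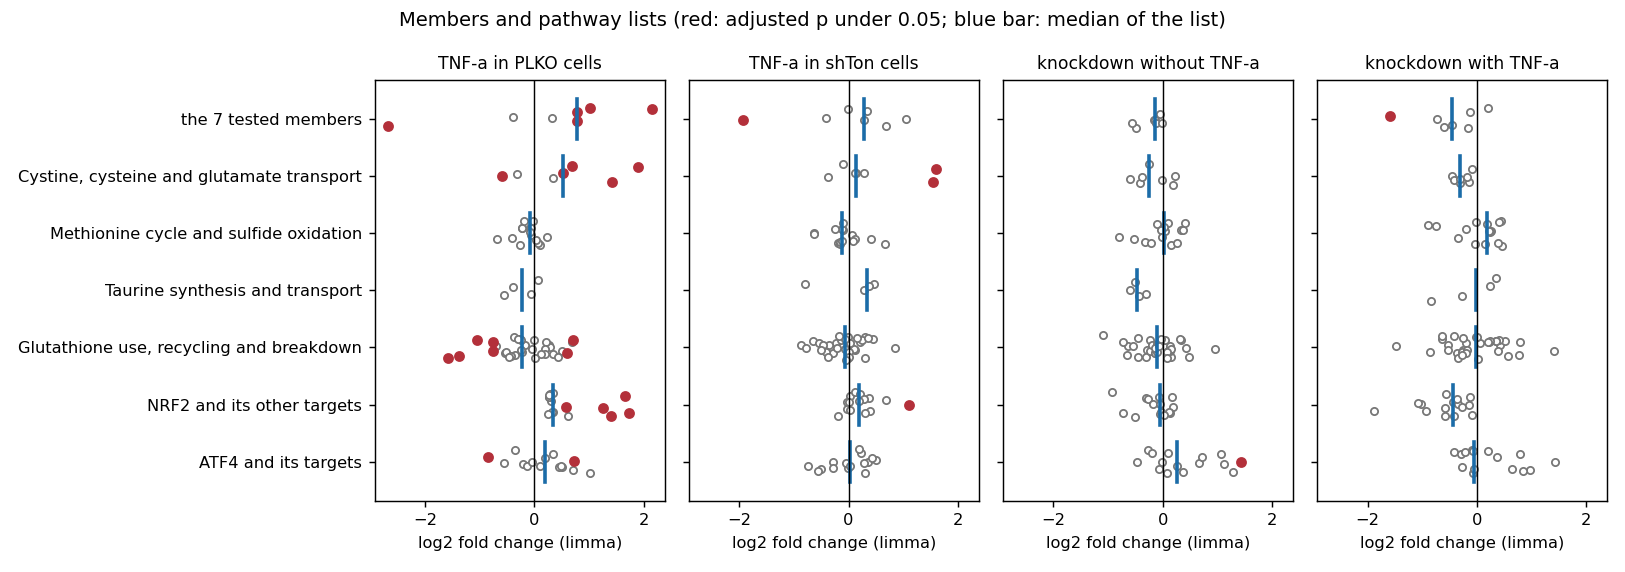
Log2 fold changes (limma) of the 7 tested genes and of the tested genes of the 6 pathway lists, 1 panel per comparison, 1 symbol per gene, red and filled where the adjusted p was under 0.05, with a blue bar at each list's median. With TNF-a in PLKO cells all 15 NRF2 genes lie right of 0, and in the knockdown with TNF-a all 15 lie left of it.

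The genes whose pattern over the 12 libraries was most like that of Cdo1 were Cebpd, Arntl2 and Ptplad2, at a root mean square distance of 0.62, 0.64 and 0.69 in centred log2 values, where Cdo1 itself had a root mean square deviation of 1.37. For Slc7a11, whose own deviation was 2.69, the nearest were RT1-Da, RT1-Ba and Rdh5, at 0.90, 0.92 and 0.92. These distances take in differences among sets as well as between groups. For Slc7a11 the range among sets was 6.05 on the log2 scale, against 2.15 with TNF-a in PLKO cells. RT1-Da and RT1-Ba, class II histocompatibility genes, had few reads, at most 83.5 and 63.4 normalised reads and 0 in at least 1 library.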

How the data were processed

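RNA-seq values of 12 libraries (4 groups of 3) were used as deposited. Novoalign 2.08.01, DESeq2 and rat build rn5 were used per the submitters' processing notes. No source used here gives the read counter, strandedness, annotation release or the model behind the deposited fold changes. The authors deposited a normalised signal per gene and library, scaled separately in 3 tables, with log2 fold changes and adjusted p-values, per the file headers. An adjusted p listed as NA was kept as NA.

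Every signal value was a whole number of reads times 1 factor per library (100% within 0.001 read). Recovered reads were joined over 12899 genes common to the 3 tables and scaled with DESeq2 size factors for levels by library, TNF-a in shTon cells, the interaction and differences among sets. Total reads on listed genes were 7160042 to 18646798 per library, so a count of 0 allows up to 3 reads. Libraries of 1 group differed by a chi-square of 73.3 to 167 per degree of freedom, so none was a copy.

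limma 3.58.1 (R 4.3.3) was fitted on log2(normalised reads + 1), with a mean of at least 10, a mean-variance trend, the set as a block and Benjamini-Hochberg adjustment over all genes at 0.05, by pair on the deposited tables. Set numbers pair the libraries: their deviations from the mean of the group had correlations of 0.609 to 0.889 in 18 same-set pairs and of -0.741 to 0.18 in 36 others. Since each group was centred on its own mean, high same-set values force the others down. The low range of the others is therefore no separate evidence of pairing. edgeR 4.0.16, DESeq2 1.42.0 and other settings were alternatives, including a fit without the set, and the fits were tested on simulated data. Named are the 8 genes, Nfat5, Slc3a2, Slc6a6, Nfe2l2, up to 3 called genes with the largest change per list and direction, and the 3 nearest patterns of Cdo1 and Slc7a11. Genes, lists and the block were chosen with earlier results of these data known. Promoters are from RefSeq (GRCr8), whose coordinates were used with no value of the rn5 tables.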

Additional observations from a re-analysis of the deposited data

How the results depend on the processing

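Without the set as a replicate block, 0 genes passed with TNF-a in PLKO cells and in either knockdown comparison, and 14 with TNF-a in shTon cells (with the block 1190, 14, 31 and 333). Without the mean-variance trend the counts were 55, 0, 0 and 204. DESeq2 called 403 and 363 genes in the knockdown without and with TNF-a and 684 with TNF-a in shTon cells. With all 12 libraries in 1 fit, 696 genes passed with TNF-a in PLKO cells, 3 in the knockdown without and 444 in that with TNF-a. A pseudocount of 0.1 gave 2 and 12 knockdown calls, and 5 gave 23 without TNF-a. Leaving out 1 set at a time gave 545 to 1410, 12 to 283, 32 to 488 and 26 to 201 calls in the 4 comparisons and 2946 to 3865 among sets. Without the set 1 library labelled shTon_TNF, 299 genes passed with TNF-a in shTon cells and 5918 among sets. The cause was not tested. Beside the losses without the block or the trend, the call of Slc7a11 in the knockdown with TNF-a was lost with a pseudocount of 0.1 (adjusted p = 0.0599) and in edgeR (0.0586), and that of Cdo1 in shTon cells with a pseudocount of 0.1 (0.0506).

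Directions turned only for values that passed no test with all libraries, and when 1 set or library was left out their log2 fold changes ranged as follows. In the knockdown without TNF-a Cdo1 ranged from -0.91 to 0.093, Cth from -0.29 to 0.016, Gclc from -0.25 to 0.001, Gclm from -0.21 to 0.23, Gss from -0.22 to 0.19 and Slc3a2 from -0.22 to 0.22. In that with TNF-a Cdo1 ranged from -0.12 to 0.41, Csad from -0.49 to 0.25, Slc6a6 from -0.59 to 0.21 and Nfat5 from -1.09 to 0.18. With TNF-a in PLKO cells Slc6a6 ranged from -0.094 to 0.36. In shTon cells Cth ranged from -0.080 to 0.013, Slc6a6 from -0.077 to 0.54, Nfe2l2 from -0.028 to 0.068 and Nfat5 from -0.32 to 1.01. The interaction of Csad ranged from -0.46 to 0.24, that of Gss from -0.30 to 0.032 and that of Slc6a6 from -0.14 to 0.64, and the Csad value was 0.033 in edgeR and 0.006 in DESeq2. Differences among sets were not run in DESeq2 and have no fit without the set.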
